A study of Mus musculus with 4 samples.

Results

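The genes of the eukaryotic translation initiation factors were read in activated and resting regulatory T cells (Treg) of mouse spleen. All protein-coding genes whose symbol begins with Eif and a digit from 1 to 6 were taken, leaving out the eIF2 kinases. This gave 51 genes of the 38924 identifiers in the count table, and 48 of them had enough counts to be tested among 14235 genes.

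Treg are CD4+ T cells that carry the transcription factor Foxp3 and restrain immune responses. RNA was sequenced from 2 samples of activated Treg and 2 samples of resting Treg, described as duplicates from independent animals. The title of the series is about Foxo1, a forkhead transcription factor, at graded activity in Treg, and its design text sets the transcriptomes of these populations side by side. The labels print one and the same gate for both groups, which includes CD4+, Foxp3+ and CD44lo, and they name no strain, age or further treatment. The count table names the group of each library but not its replicate number, so the libraries are called activated A and B and resting A and B. The letters follow the order of the columns. The headers do not pair libraries, but the regularized log values below match A to replicate 1 and B to replicate 2.

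Library totals ran from 20282062 to 31851982 counts. Activated B had the fewest counts but 23398 genes detected, against 19610 in activated A and 19061 and 18928 in resting A and B. The initiation factor genes held 1.11% and 1.13% of the counts in activated A and B, against 1.19% and 1.18% in resting A and B. Levels are given as CPM, the count scaled to a common library total, after scaling by trimmed means (TMM factors), and differences as log2 fold changes of activated over resting with their standard errors (SE). CPM is a share of a library, so total RNA per cell is not measured, and fewer cells of a type and less RNA per cell cannot be told apart. Cd44, an adhesion receptor that is part of the gate, had 329 and 335 CPM in activated Treg and 145 and 213 CPM in resting Treg, so its groups did not overlap although the printed gates are the same. The 7 T cell and Treg markers were all detected and summed to 5201 and 6172 CPM in activated Treg, against 4690 and 5411 CPM in resting Treg. Their directions were mixed: Cd4, Ctla4 and Ikzf2 lay above in activated Treg, and Cd3e, Trac and Foxp3 overlapped between the groups. Il2ra lay below, with 921 and 719 CPM in activated Treg and 1030 and 1088 CPM in resting Treg. Marker lists of other cells also differed between the groups: 4 plasmacytoid dendritic cell markers summed to 616.5 and 193 CPM in activated Treg, against 80.99 and 92.8 CPM in resting Treg, where Klk1 was at 0 in resting B. Bst2 made up most of the resting sum, with 54.6 and 71.2 CPM there and 149 and 79.35 CPM in activated Treg. Siglech had 280 and 58.7 CPM in activated Treg, against 0.778 and 0.261 CPM in resting Treg. The 4 conventional dendritic cell markers summed to 69.3 and 20.6 CPM in activated Treg, against 3.84 and 1.93 CPM in resting Treg, where Clec9a was at 0 in resting B. The 3 plasma cell markers summed to 40.6 and 44.2 CPM in activated Treg, against 10.01 and 33.5 CPM in resting Treg. Most of that sum was Jchain, with 31.4 and 37.2 CPM in activated Treg and 9.24 and 31.9 CPM in resting Treg. Jchain overlapped between the groups, and Sdc1 and Mzb1 did not. The 2 natural killer cell markers summed to 11.9 and 15.9 CPM in activated Treg, against 2.14 and 3.88 CPM in resting Treg, where Ncr1 was at 0 in both libraries. Nearly all of that sum was Klrb1c, with 11.7 and 15.7 CPM in activated Treg, and Ncr1 had only 7 and 4 counts there. The 3 neutrophil markers summed to 1.34 and 0.345 CPM in activated Treg and were at 0 in both resting libraries. The part of these cells in the values of the initiation factor genes was not tested.

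Translation initiation brings the small ribosomal subunit, the initiator tRNA and an mRNA together at a start codon. eIF2 carries the initiator tRNA, eIF3 and eIF1 and eIF1A organise the small subunit for scanning, and eIF4F binds the mRNA cap and unwinds the leader. eIF4E-binding proteins restrain eIF4F, eIF2B recharges eIF2 with GTP, and eIF5, eIF5B and eIF6 act around subunit joining. In T cells, growth signals through mTOR act on this machinery largely by phosphorylation of the proteins, which transcript counts do not measure.

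No initiation factor gene passed the test between activated and resting Treg over all genes. edgeR's quasi-likelihood test with Benjamini-Hochberg adjustment called 0 of 48, and it called 0 of all 14235 genes (0.0%), with a smallest adjusted p of 0.267 over all genes. DESeq2 called 0 of the 48, against 442 of all genes (3.11%). At an unadjusted edgeR p under 0.05, 1 of 48 was higher in activated Treg (2.08%), the eIF4E transporter gene Eif4enif1, against 6.3% of all genes. On the same scale 0 of 48 were lower in activated Treg, against 2.61% of all genes. In 2 of the 48 genes both activated libraries lay above both resting ones (4.17%), against 19.8% of all genes, and in 12 of the 48 both activated libraries were lower than both resting ones (25.0%), against 17.4% of all genes.

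The log2 fold changes of the 48 genes ran from -0.53 for Eif4e3 to 0.52 for Eif4enif1, with a median of -0.09 beside a median of -0.01 over all genes. The log2 fold change was below 0 for 38 of the 48 genes (79.2%), beside 50.9% of all genes, but for 25 of 48 when activated A was left out. These counts describe directions that no test called. Changes were small: 2 of the 48 had a log2 fold change of more than 0.5 in size (4.17%), against 26.8% of all genes. For 42 of the 48 genes (87.5%) the 95% interval of the fold change lay within 2-fold in both directions, against 43.8% of all genes. The members are better expressed than most genes, with a median of 40.9 CPM per kilobase beside 6.36 over all genes tested; the part of depth in the narrow intervals was not tested. In 38 of the 48 (79.2%) the larger gap between libraries of 1 group exceeded the gap between the group means, against 72.1% of all genes.

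**Figure D1:**
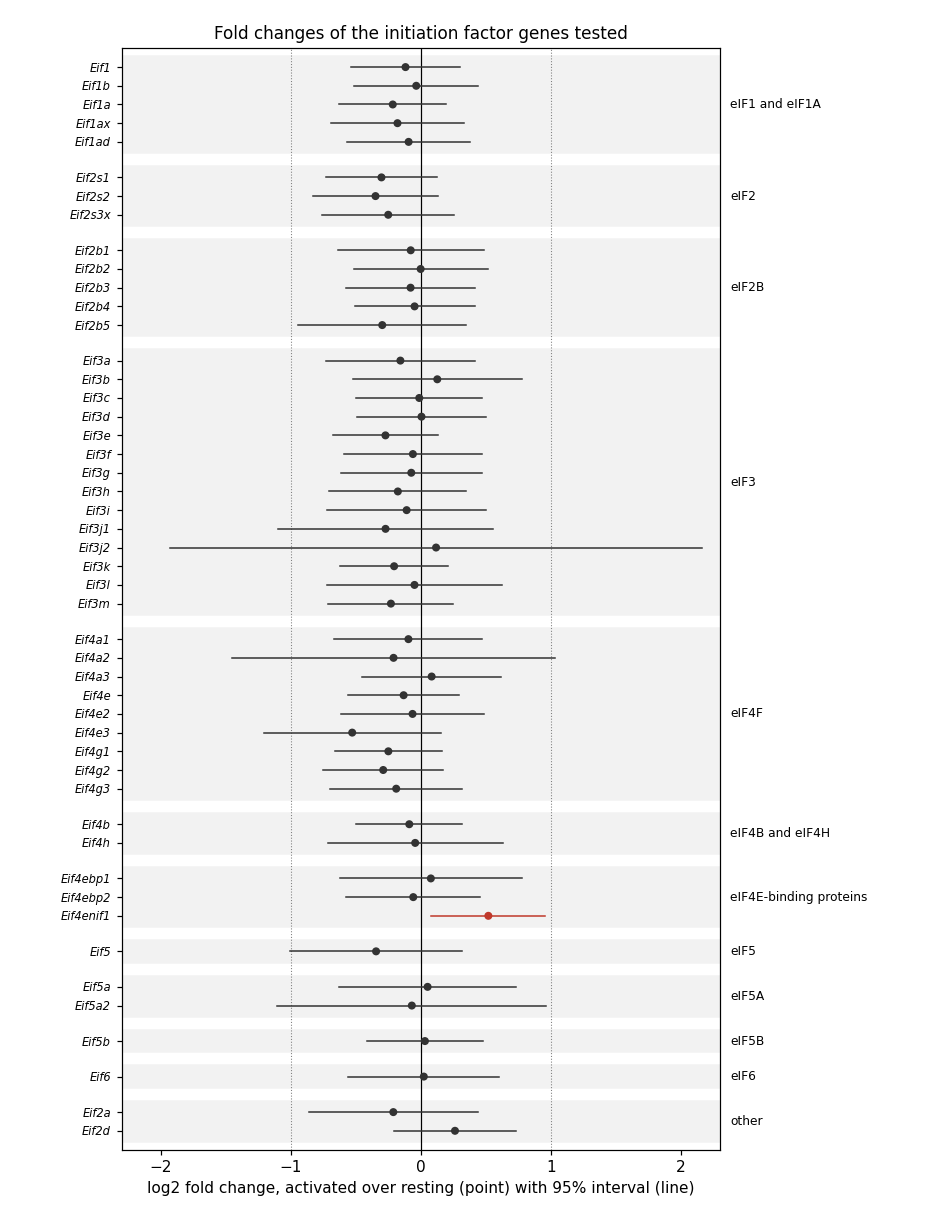
Log2 fold change of activated over resting Treg (points, horizontal axis) with its 95% interval from edgeR (lines) for the 48 initiation factor genes tested, in rows by complex; dotted lines mark a 2-fold difference. Eif4enif1, in red at 0.52, is the one gene whose interval leaves out 0, and 42 of the 48 intervals stay between the dotted lines.

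**Figure D2:**
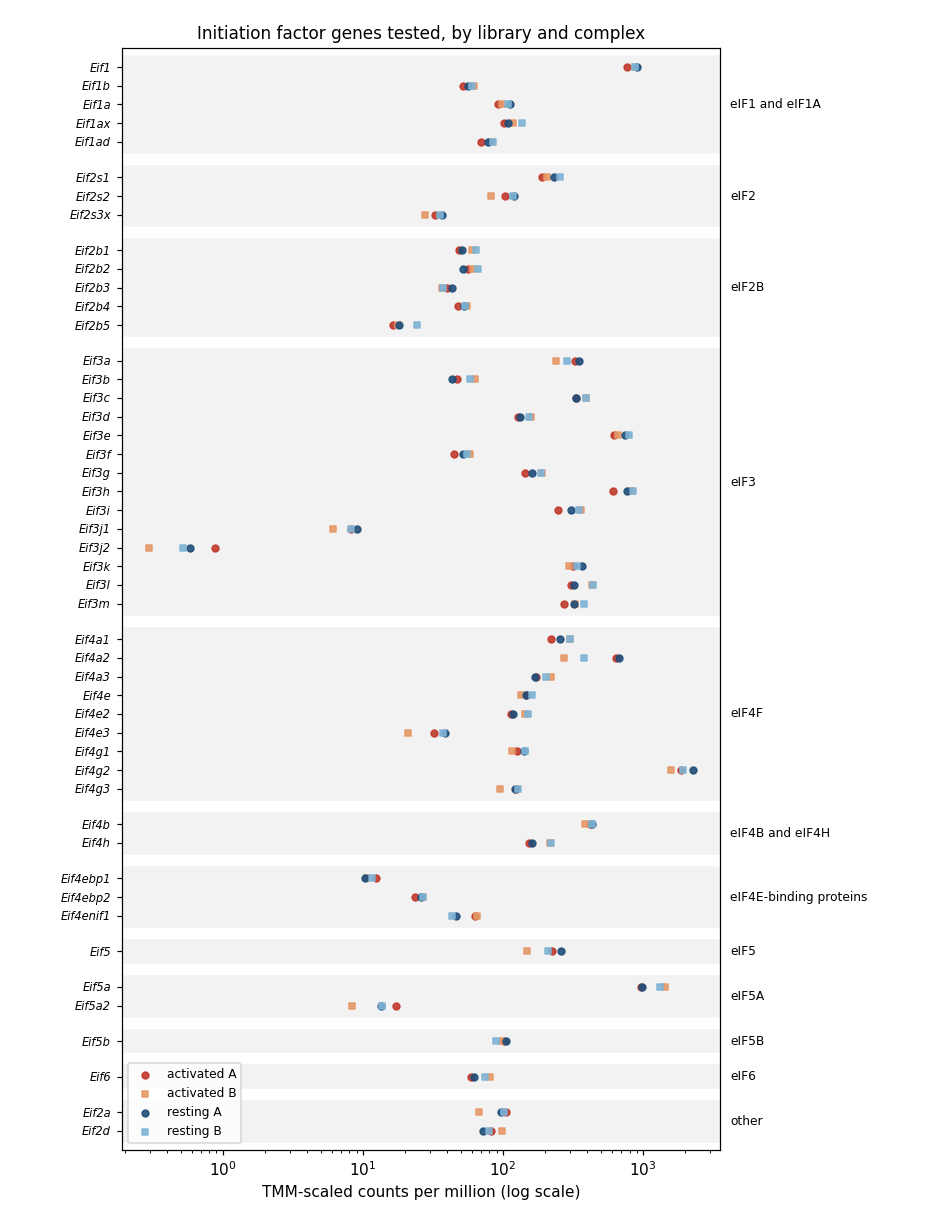
TMM-scaled CPM on a log axis for the same 48 genes in each library, with activated libraries in red and orange and resting libraries in blue. The letters A and B follow the order of the columns. Within most genes the 4 points lie close together, and those of Eif4a2 run from 270.5 to 671.5 CPM.

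The helicase genes Eif4a1 and Eif4a2, the highest gene per length, Eif5a, and the gene with the smallest p, Eif4enif1, carry much of the account below, so the sequences around their transcription start sites are shown. Each runs from 200 bases before to 20 bases after the start, from the RefSeq promoter table on GRCm38.p6, and capitals mark the E-box CACGTG, a palindromic site bound by Myc and related factors. The windows are chr11:69672404-69672623 on the minus strand for Eif4a1, chr16:23107268-23107487 on the plus strand for Eif4a2, chr11:69921367-69921586 on the minus strand for Eif5a and chr11:3202795-3203014 on the plus strand for Eif4enif1.
Eif4a1: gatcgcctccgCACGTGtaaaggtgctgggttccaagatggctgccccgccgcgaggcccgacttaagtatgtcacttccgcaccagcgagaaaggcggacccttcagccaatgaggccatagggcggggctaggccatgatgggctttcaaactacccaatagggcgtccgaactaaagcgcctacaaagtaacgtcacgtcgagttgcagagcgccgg
Eif4a2: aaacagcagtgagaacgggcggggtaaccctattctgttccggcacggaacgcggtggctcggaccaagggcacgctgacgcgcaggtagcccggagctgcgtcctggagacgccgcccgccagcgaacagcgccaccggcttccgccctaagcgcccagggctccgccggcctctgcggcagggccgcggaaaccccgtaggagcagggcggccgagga
Eif5a: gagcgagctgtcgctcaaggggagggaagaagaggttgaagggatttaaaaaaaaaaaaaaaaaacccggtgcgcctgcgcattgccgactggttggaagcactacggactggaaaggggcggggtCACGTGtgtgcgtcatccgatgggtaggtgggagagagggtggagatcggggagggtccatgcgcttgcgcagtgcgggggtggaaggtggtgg
Eif4enif1: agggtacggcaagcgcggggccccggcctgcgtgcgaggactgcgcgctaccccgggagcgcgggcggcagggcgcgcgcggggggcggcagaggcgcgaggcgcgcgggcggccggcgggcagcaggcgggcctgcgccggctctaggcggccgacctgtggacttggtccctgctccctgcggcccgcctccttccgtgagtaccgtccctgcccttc
The start of Eif4a1 has an E-box 189 bases upstream and that of Eif5a has one 74 bases upstream. The windows of Eif4a2 and Eif4enif1 hold none, and the bases G and C make up 59.5% of the Eif4a1 window, 71.4% of that of Eif4a2, 58.6% of that of Eif5a and 80.0% of that of Eif4enif1. Counting 250 bases before to 50 after each start, and any listed start of a gene, 39 of the 51 initiation factor genes matched the table and 10 of them held CACGTG (25.6%). The share was 8.09% of 27025 genes in the table and 11.7% of the 10039 tested genes found in it. The other genes with it were Eif1b, Eif3a, Eif3f, Eif3k, Eif4e, Eif4g1, Eif4h and Eif5a2. The median log2 fold change was -0.08 in the 10 genes with an E-box and -0.08 in the 28 tested genes without one. The forkhead motif GTAAACA, read on both strands, stood in 1 of the 39 windows (2.56%), that of the Y-linked Eif2s3y, against 4.05% of all genes in the table. Eif2s3y was not tested, so 0 of the 38 tested members in the table held the motif, against 3.06% of the tested genes in it. A match is a run of letters in the window and not a measured binding site.

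The helicase eIF4A, which unwinds mRNA leaders as part of eIF4F, comes from 2 genes. Eif4a2 (chromosome 16, 23107444 to 23114136, plus strand; positions here are from GENCODE M21 on mm10) had 636 and 270.5 CPM in activated A and B, against 671.5 and 377 CPM in resting A and B. Its groups overlapped, and in each group one library had far more than the other. The log2 fold change was -0.21 ± 0.49 (SE), with an edgeR adjusted p of 0.994. The sign turned when activated B was left out (0.28) or resting A was left out (0.25), and the value was -0.94 without activated A. Eif4a1 (chromosome 11, 69666936 to 69672423, minus strand) had 221 and 301.5 CPM in activated Treg and 256 and 301.1 CPM in resting Treg, a log2 fold change of -0.09 ± 0.22 (SE; edgeR adjusted p = 0.994). Its high and low libraries stood the other way round, and its sign turned without activated A (0.12) or resting B (0.01). Divided by transcript length, the level of Eif4a2 over that of Eif4a1 was 2.32 and 0.721 in activated A and B, against 2.10 and 1.01 in resting A and B. The split therefore ran within each group and not between the groups. Exons of Eif4a1 and Eif4a2 host small nucleolar RNAs, each of which covers no more than 3.34% of the host's exon bases, and reads on those bases may have been counted to either gene or to none. That limit holds for each RNA alone, and several lie in Eif4a2. The opposite-strand gene Rfc4 shares 3.63% of the exon bases of Eif4a2.

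The libraries with more Eif4a2 also had more of other transcripts. The 5 markers of red pulp macrophages, none at 0 in any library, summed to 300.6 and 18.7 CPM in activated A and B, against 377 and 8.19 CPM in resting A and B. The 7 markers of dividing cells, also detected throughout, summed to 386 and 774 CPM in activated A and B, against 251 and 1105 CPM in resting A and B. Activated A and resting A thus had the higher Eif4a2, the higher macrophage sum and the lower sum for dividing cells. Eif5a, Eif4a1 and Eif4h were lower in those same libraries. The part of macrophages or dividing cells in the levels of these genes was not tested.

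**Figure D3:**
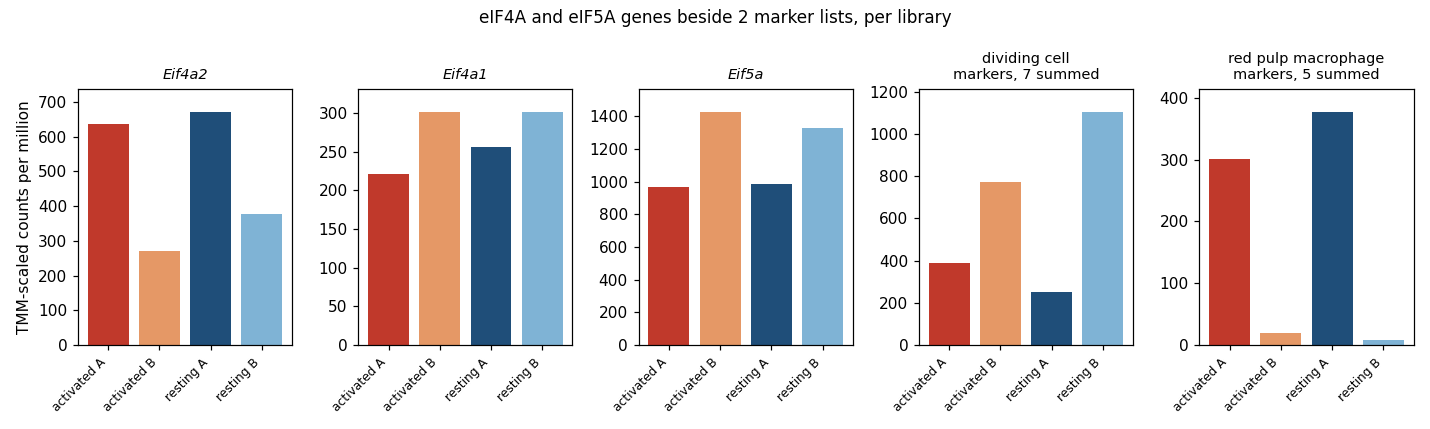
TMM-scaled CPM (vertical axis, from 0) of Eif4a2, Eif4a1 and Eif5a and of 2 summed marker lists in the 4 libraries; bars are single libraries, so they carry no error. Eif4a2 and the macrophage sum are high in activated A and resting A, and Eif4a1, Eif5a and the dividing cell sum are high in activated B and resting B.

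None of the cap-binding and scaffold genes of eIF4F passed the test. Of the 9 tested genes grouped with eIF4F, helicases and relatives of its subunits included, 4 had both activated libraries below both resting ones (44.4%), against 17.4% of all genes. These were Eif4e, Eif4e3, Eif4g1 and Eif4g2. The other 5 overlapped. Eif4e, the cap-binding protein, had 145 and 135 CPM in activated Treg and 146 and 161 CPM in resting Treg. The log2 fold change was -0.13 ± 0.17 (SE; edgeR adjusted p = 0.965), and the nearest libraries of the groups almost met. Eif4e2, a cap-binding relative that represses translation, had 114 and 143 CPM in activated Treg and 118 and 149.9 CPM in resting Treg, and the groups overlapped (log2 fold change -0.06 ± 0.22). Eif4e3, another cap-binding relative, had 32.0 and 20.9 CPM in activated Treg and 38.8 and 37.5 CPM in resting Treg. It had the lowest log2 fold change of the 48, -0.53 ± 0.27 (SE; edgeR adjusted p = 0.724), with both activated libraries below both resting ones. That value was -0.86 without activated A and -0.26 without activated B, where it was no longer the lowest of the genes. A predicted coding gene on the same strand shares 14.8% of its exon bases, so the count is uncertain to that extent. Eif4e1b, an egg-type cap-binding protein, had 0 counts in all 4 libraries, which allows up to 0.148 CPM in the library with the highest limit (a limit of 3 counts, covering counting error only).

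Among the scaffolds, Eif4g2, which lacks the cap-binding partner's site, took the largest share of counts of the initiation factor genes. It had 1848 and 1580 CPM in activated Treg and 2260 and 1927 CPM in resting Treg (log2 fold change -0.29 ± 0.18, edgeR adjusted p = 0.815). Eif4g1, the main scaffold, had 125 and 116.5 CPM in activated Treg and 142 and 144 CPM in resting Treg (log2 fold change -0.25 ± 0.16, edgeR adjusted p = 0.833). In both genes the activated libraries lay below the resting ones. Eif4g3 had 124 and 95.3 CPM in activated Treg and 122 and 128 CPM in resting Treg, with overlap (log2 fold change -0.19 ± 0.20). Per transcript length, Eif4g2 stood at 10.5 and 9.56 times Eif4g1 in activated Treg, and at 11.2 and 9.41 times in resting Treg. Eif4a3, a relative of the helicases that belongs to the exon junction complex, had a log2 fold change of 0.08 ± 0.21 and was the one gene above 0 among the 9 tested here. The helicase cofactor Eif4b had 419 and 388 CPM in activated Treg and 428 and 429.5 CPM in resting Treg, again with no overlap (log2 fold change -0.09 ± 0.16). Its partner Eif4h had 152.5 and 216 CPM in activated Treg and 161 and 219 CPM in resting Treg, and the groups overlapped.

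Of the proteins that bind eIF4E, Eif4enif1, which carries eIF4E into the nucleus and to sites of mRNA storage, was the gene with the smallest p. It had 62.9 and 64.8 CPM in activated Treg and 45.9 and 43.1 CPM in resting Treg. The libraries of a group were close together and the groups did not overlap. The log2 fold change was 0.52 ± 0.17 (SE), with an edgeR adjusted p of 0.467 and a DESeq2 adjusted p of 0.313. Leaving out any 1 library kept the value between 0.46 and 0.56 but took the unadjusted edgeR p over 0.05 each time. Its position is chromosome 11, 3202392 to 3244588, plus strand.

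The translation repressors, which hold eIF4E until mTOR phosphorylates them, had few counts. Eif4ebp1 had 12.5 and 10.7 CPM in activated Treg and 10.3 and 11.7 CPM in resting Treg (log2 fold change 0.08 ± 0.27). Eif4ebp2 had 23.7 and 27.0 CPM in activated Treg and 26.1 and 26.6 CPM in resting Treg (log2 fold change -0.06 ± 0.20). Both overlapped between groups. Eif4ebp3 had 10 and 0 counts in activated Treg and 0 and 6 counts in resting Treg and was not tested; 67.3% of its exon bases are shared with another coding gene on its strand. Per transcript length, the 3 repressors together stood at 0.371 and 0.371 of the level of Eif4e in activated Treg, and at 0.330 and 0.333 in resting Treg. Those ratios did not overlap, and an exact two-sided permutation test of 2 against 2 libraries cannot go below p = 0.333, so none was run.

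In eIF2 all 3 tested subunits had both activated libraries below both resting ones (100%), against 17.4% of all genes. Their median log2 fold change was -0.30, and none of them passed the test. Eif2s1, the alpha subunit that stress kinases phosphorylate, had 189 and 207 CPM in activated Treg and 233 and 255 CPM in resting Treg (log2 fold change -0.30 ± 0.17, edgeR adjusted p = 0.768). Eif2s2, the beta subunit, had 103 and 82.6 CPM in activated Treg and 119 and 117 CPM in resting Treg (log2 fold change -0.35 ± 0.19, edgeR adjusted p = 0.755). Eif2s3x, the GTP-binding gamma subunit on the X chromosome, had 32.9 and 27.7 CPM in activated Treg and 36.6 and 35.5 CPM in resting Treg (log2 fold change -0.25 ± 0.20, edgeR adjusted p = 0.899). In each of them the gap between the group means exceeded the larger gap between libraries of a group. The Y-linked counterpart of the gamma subunit, Eif2s3y, had 0 counts in all 4 libraries. Of the factors outside the complex, neither of which passed, Eif2a had 104.5 and 67.3 CPM in activated Treg and 97.4 and 101 CPM in resting Treg, with overlap (log2 fold change -0.21 ± 0.25, but 0.07 without activated B). Eif2d, which acts in ribosome recycling and reinitiation, had 82.5 and 98.4 CPM in activated Treg and 71.9 and 78.8 CPM in resting Treg, with both activated libraries above (log2 fold change 0.26 ± 0.18, edgeR adjusted p = 0.861).

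The 5 genes of eIF2B, the exchange factor of eIF2, had log2 fold changes from -0.30 to -0.00, and in all 5 the gap within a group exceeded that between the groups. The highest per transcript length was Eif2b2, with 56.7 and 61.5 CPM in activated Treg and 51.97 and 66.2 CPM in resting Treg. The lowest was the catalytic subunit gene Eif2b5, with 16.5 and 17.9 CPM in activated Treg and 17.99 and 24.2 CPM in resting Treg (log2 fold change -0.30 ± 0.25). Its groups did not overlap, but activated B and resting A were almost equal. Eif2b1, Eif2b3 and Eif2b4 lay between 36.6 and 64.4 CPM in every library, with overlap between the groups.

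eIF3, the scaffold of the small subunit, is represented by 14 genes with log2 fold changes from -0.27 to 0.13 and a median of -0.09. In Eif3e and Eif3k both activated libraries were lower than both resting ones (14.3% of the 14), against 17.4% of all genes. No gene of the 14 had both above, against 19.8% of all genes. Eif3e had 620 and 660.2 CPM in activated Treg and 747 and 799 CPM in resting Treg (log2 fold change -0.27 ± 0.16, edgeR adjusted p = 0.790). Eif3k had 314 and 298 CPM in activated Treg and 366 and 339.7 CPM in resting Treg (log2 fold change -0.20 ± 0.16). The highest level per length belonged to Eif3h, which had 612 and 819 CPM in activated Treg and 771.5 and 846 CPM in resting Treg, with overlap (log2 fold change -0.18 ± 0.21). Eif3b, which carries an RNA recognition motif, had 46.98 and 63.2 CPM in activated Treg and 42.97 and 57.9 CPM in resting Treg. Its log2 fold change of 0.13 ± 0.25 was the highest of the complex.

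The 14 eIF3 genes spanned 0.240 to 589 CPM per kilobase although they encode subunits of one complex. The lowest were the loosely bound eIF3j, encoded by near-identical copies. Eif3j1 had 8.28 and 6.07 CPM in activated Treg and 9.14 and 8.19 CPM in resting Treg, and the opposite-strand gene Spg11 shares 19.0% of its exon bases. Eif3j2 had 0.883 and 0.296 CPM in activated Treg and 0.583 and 0.522 CPM in resting Treg, with a log2 fold change of 0.12 ± 0.80. No source used here says how reads that match both copies were counted, so the level of each copy is uncertain. Next above them were Eif3b and Eif3f, at 17.9 and 20.8 CPM per kilobase over the 4 libraries. Eif3a, Eif3c, Eif3d, Eif3g, Eif3i, Eif3l and Eif3m lay between 128 and 441 CPM in every library, and the groups overlapped in each. Of these, Eif3d shares 43.3% of its exon bases with an opposite-strand transcript, and no source used here says whether the counting used strand.

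None of the start codon factors passed the test. Eif1, which guards start codon choice, had 761.5 and 874.5 CPM in activated Treg and 903.5 and 871 CPM in resting Treg (log2 fold change -0.12 ± 0.17), and its relative Eif1b had 52.2 and 62.1 CPM in activated Treg and 56.6 and 60.4 CPM in resting Treg. Both overlapped. Eif1a had 92.0 and 98.1 CPM in activated Treg and 112 and 108.5 CPM in resting Treg, with no overlap (log2 fold change -0.22 ± 0.16, edgeR adjusted p = 0.886). The X-linked copy Eif1ax had 101 and 117 CPM in activated Treg and 109 and 138 CPM in resting Treg (log2 fold change -0.18 ± 0.20). Per transcript length Eif1ax stood at 0.607 and 0.663 of Eif1a in activated Treg, and at 0.540 and 0.703 in resting Treg, so the balance of the copies overlapped between the groups. Eif1ad, a gene with an eIF1A domain, had a log2 fold change of -0.09 ± 0.18. Opposite-strand genes share 12.7% of the exon bases of Eif1b and 15.3% of those of Eif1ad. Eif5, which triggers GTP hydrolysis by eIF2, had 222 and 148 CPM in activated Treg and 259 and 211 CPM in resting Treg (log2 fold change -0.34 ± 0.26, edgeR adjusted p = 0.889). Activated A stood within the resting range and activated B below it, and the value was -0.65 without activated A and -0.09 without activated B.

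Of the late factors, Eif5a had the highest level per transcript length of all 51 genes, 818 CPM per kilobase over the 4 libraries. Its protein, modified with hypusine, helps ribosomes over difficult peptide bonds and acts in termination. Eif5a (chromosome 11, 69916714 to 69921958, minus strand) had 969 and 1426 CPM in activated Treg and 983.5 and 1326 CPM in resting Treg (log2 fold change 0.05 ± 0.27, edgeR adjusted p = 0.994). The groups covered nearly the same span, and the sign turned without activated B (-0.26) or resting A (-0.15). Its relative Eif5a2 had 17.3 and 8.39 CPM in activated Treg and 13.4 and 13.6 CPM in resting Treg, so the activated libraries stood on either side of the resting ones. Eif5b, the GTPase of subunit joining, had 101 and 97.6 CPM in activated Treg and 105 and 89.4 CPM in resting Treg (log2 fold change 0.03 ± 0.17). Eif6, which keeps large subunits from joining too early, had 59.0 and 80.1 CPM in activated Treg and 62.3 and 74.6 CPM in resting Treg (log2 fold change 0.02 ± 0.23). Opposite-strand genes share 16.8% of the exon bases of Eif5b and 5.11% of those of Eif6.

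The authors' regularized log values, which carry the replicate numbers 1 and 2, show the spread within the groups. In each group the level of replicate 1 was subtracted from that of replicate 2, and the differences of the activated and the resting pair were compared across genes. Over the 48 initiation factor genes they correlated with Pearson's r = 0.756 and Spearman's rho = 0.756, beside r = 0.652 and rho = 0.610 over all 14235 genes tested. Genes are not independent replicates, the members share these libraries, and the values are a description. The difference had the same sign in both groups for 38 of the 48 genes (79.2%), beside 72.8% of all genes, with 26 higher in replicate 2 and 12 lower. Eif4a2 differed most, by -1.14 in activated Treg and -0.77 in resting Treg on the log2 scale. Eif5a was higher in replicate 2 by 0.53 in activated Treg and 0.41 in resting Treg. Eif5 was lower by 0.53 in activated Treg and 0.27 in resting Treg, and Eif5a2 differed in activated Treg only, with -0.87 there and 0.02 in resting Treg. In log2 CPM, A minus B was 1.23 in activated Treg and 0.83 in resting Treg for Eif4a2, and -0.56 and -0.43 for Eif5a. By size and sign, A thus matched replicate 1 and B matched replicate 2 in both groups. The differences between replicates and the split between A and B above are therefore one and the same. With 2 libraries a group, no test separates a shared batch from chance likeness, and the labels name no batch.

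**Figure D4:**
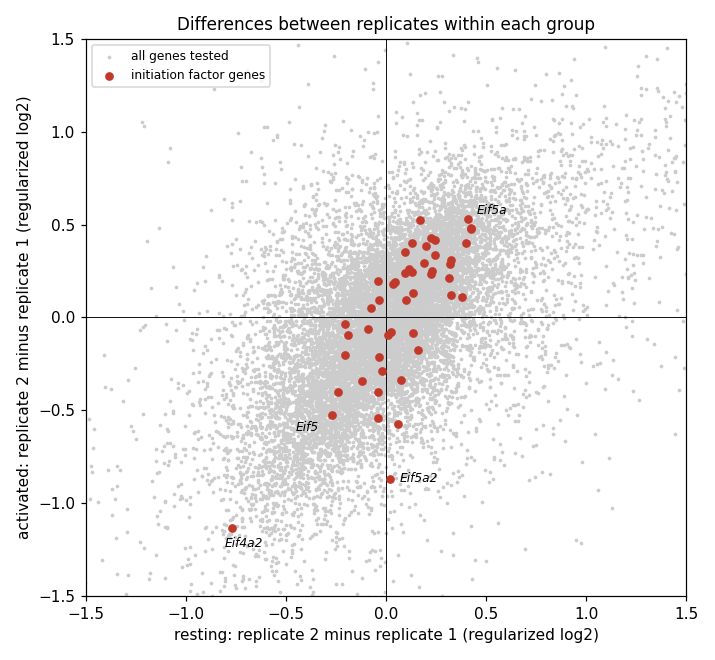
Replicate 2 minus replicate 1 in activated Treg (vertical axis) against the same in resting Treg (horizontal axis), in the authors' regularized log2 values, for all genes tested (grey) and the 48 initiation factor genes (red); 470 grey genes lie outside the axes. Most red points share their sign on the axes, with Eif4a2 lowest in both groups.

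The rest of the translation machinery was read from a list of 55 genes, of which 53 were tested. edgeR with adjustment called 0 of 53 and DESeq2 called 0, against 0.0% and 3.11% of all genes. At an unadjusted edgeR p under 0.05, 0 were higher in activated Treg and 1 was lower (1.89%), against 6.3% and 2.61% of all genes. Both activated libraries lay above both resting ones in 8 of the 53 (15.1%), against 19.8% of all genes, and below in 14 (26.4%), against 17.4% of all genes. The one lower gene was Larp1, which binds mRNAs of ribosomal proteins and elongation factors, with 109 and 88.9 CPM in activated Treg and 156.5 and 130.5 CPM in resting Treg. Its log2 fold change was -0.54 ± 0.20 (SE; edgeR adjusted p = 0.529), and it passed the unadjusted p without activated A but not without any other library.

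Of the 12 elongation genes, 5 had both activated libraries below both resting ones (41.7%) and 2 had them above (16.7%), against the same 17.4% and 19.8% of all genes. Eef1a1, which delivers charged tRNA and took the largest share of counts in the list, had 9099 and 8760 CPM in activated Treg and 11040 and 10840 CPM in resting Treg (log2 fold change -0.29 ± 0.14, edgeR adjusted p = 0.702). Of the 19 partners and regulators of the cap complex, 5 lay below (26.3%) and 3 above (15.8%). Rps6, a ribosomal protein phosphorylated by S6 kinases, had 725 and 825 CPM in activated Treg and 1003 and 915.5 CPM in resting Treg (log2 fold change -0.31 ± 0.17, edgeR adjusted p = 0.762). Pdcd4, which keeps eIF4A from eIF4G, had 575 and 369.5 CPM in activated Treg and 723 and 587 CPM in resting Treg (log2 fold change -0.47 ± 0.27).

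Among the 8 genes of the eIF2 kinases and phosphatase, 1 lay above (12.5%) and 1 below (12.5%), against 19.8% and 17.4% of all genes. Nck1, an adaptor protein with the largest mean CPM of these genes over the 4 libraries, though not in activated B, had 89.7 and 58.7 CPM in activated Treg and 92.7 and 82.6 CPM in resting Treg, with overlap. Of the 6 tested integrated stress response targets, 2 lay above (33.3%) and 1 below (16.7%), beside the same shares of all genes. Atf4, the transcription factor translated when eIF2 is phosphorylated, had 97.5 and 91.4 CPM in activated Treg and 96.5 and 98.1 CPM in resting Treg (log2 fold change -0.04 ± 0.16). Asns, the asparagine synthetase gene, had 5.04 and 18.1 CPM in activated Treg and 0.389 and 4.90 CPM in resting Treg, a log2 fold change of 2.11 ± 1.20 that did not pass (edgeR adjusted p = 0.778). Activated A and resting B were almost equal, and the gap between the resting libraries exceeded that between the group means. Trib3, the target that lay below, had 3.99 and 3.85 CPM in activated Treg and 9.38 and 4.80 CPM in resting Treg (log2 fold change -0.85 ± 0.44). Abce1, the ribosome recycling factor, had 217 and 129 CPM in activated Treg and 265 and 198 CPM in resting Treg, and the termination factor Etf1 had 107 and 104.5 CPM in activated Treg and 109.5 and 127 CPM in resting Treg. Neither passed, with edgeR adjusted p of 0.884 and 0.952.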

How the data were processed

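Total RNA was isolated with the miRNeasy kit and turned into libraries with the SMART-seq v4 kit for very low inputs, per the labels' protocols; such libraries carry no molecular identifiers, so limits from counts cover counting error only. Tools named in the submitters' processing notes are featureCounts, STAR 2.4.0c and DESeq2, with the build mm10 and no roles. No source used here gives the annotation release, strand setting or treatment of shared reads. Raw counts per gene were deposited for 38924 Ensembl identifiers. The authors also deposited DESeq2's regularized log2 values.

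Symbols and positions came from GENCODE M21 (37607 identifiers matched). Genes were kept by filterByExpr (minimum count 10, minimum total count 15) and tested on group alone with edgeR 4.0.16 (R 4.3.3), with Benjamini-Hochberg adjustment over 14235 genes at 0.05. The SE is the size of the log2 fold change divided by the root of F; the biological coefficient of variation was 0.352. In the smallest library 1 CPM is 20.3 counts. Levels per length use the longest basic coding transcript marked principal; where no length is named, CPM is not compared between genes other than as a share of the library. DESeq2 1.42.0, limma 3.58.1, other size factors and filters, a replicate block on the regularized log values, and leaving out each library were the alternatives. The steps were tested on simulated data that held no split between A and B, so that check does not cover such a split. The labels describe independent animals. The p-values set the group difference against a spread between these samples that was estimated in part from other genes.

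The initiation factor genes, gene lists and markers were chosen with earlier results of these data known. Values per library are given for genes past an unadjusted p, the highest per length in each complex, those with the largest changes and related pairs. Other members were named after their values were seen, as were Pdcd4, Asns and Trib3. The main test did not pair libraries by replicate number, because the labels' independent animals were read as unpaired. That wording does not settle whether same-numbered libraries of the resting and activated groups shared an animal. The block was an alternative only. Some genes of the marker lists are not reported here.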

Additional observations from a re-analysis of the deposited data

How the results depend on the processing

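No alternative called an initiation factor gene over all genes except the replicate block, fitted with limma to the authors' regularized log values. There 1 of 48 members was called (Eif4enif1, limma adjusted p = 0.0371), against 10.9% of all genes, and 8 were lower at an unadjusted p (Eif2s1, Eif2s2, Eif3e, Eif4a2, Eif4e3, Eif4g1, Eif4g2 and Eif5), beside 9.85% of all genes; the block's replicate numbers rest on 2 pairs, whose deviations from the group means correlated with r = 0.652 across genes. The count of members higher at an unadjusted p was 0 without a filter, where the median of all genes moved to 0.14, and 0 to 0 when single libraries were left out. The count lower ran from 0 to 3 when single libraries were left out; the 3, without activated A, were Eif4a2, Eif4e3 and Eif5, beside 4.72% of all genes. Members below 0 ran from 25 (without activated A) to 42 when single libraries were left out. The median log2 fold change of the members stayed below 0 in all 11 alternatives, from -0.18 to -0.02. Of 417 alternatives for 38 named genes, 27 turned the sign, in 16 genes; the causes were not tested. Eif2b2 was at 0.014 with a CPM filter, and without a filter Eif5b was at -0.00014 and Eif6 at -0.016. With single libraries left out, the log2 fold change ran from -0.17 to 0.10 for Eif1b, -0.55 to 0.066 for Eif2a, -0.17 to 0.17 for Eif2b2, -0.11 to 0.34 for Eif3b, -0.41 to 0.028 for Eif3h, -0.88 to 0.67 for Eif3j2 and -0.34 to 0.12 for Eif4a1. It ran from -0.94 to 0.28 for Eif4a2, -0.24 to 0.10 for Eif4e2, -0.029 to 0.18 for Eif4ebp1, -0.16 to 0.046 for Eif4ebp2, -0.26 to 0.31 for Eif5a, -0.68 to 0.35 for Eif5a2, -0.092 to 0.14 for Eif5b, -0.22 to 0.24 for Eif6 and -0.57 to 0.029 for Nck1. A group left with 1 library was assumed to vary like the other. Depth limited the reading of Eif4ebp3, Eif3j2 and the genes at 0 counts, and a p that missed the threshold does not show that levels were equal.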

Other observations

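Of 5 processed pseudogenes of initiation factor genes in the count table, Eif3s6-ps2, a copy of Eif3e, stood apart between libraries of 1 group. It had 302 and 4 counts in activated A and B, against 258 and 17 counts in resting A and B. Eif3e itself had 620 and 660.2 CPM in activated A and B, against 747 and 799 CPM in resting A and B. Eif1-ps1 had 53 and 54 counts in activated Treg and 32 and 51 counts in resting Treg, and Eif1-ps3 had 0 in all 4 libraries. Eif3s6-ps2 was chosen after its values were seen, and what splits its counts was not tested.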
